A study of Mus musculus with 8 samples.

Results

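The 10 genes described here are the effectors and feedback genes of canonical Wnt signaling: the TCF/LEF transcription factors Lef1, Tcf7, Tcf7l1 and Tcf7l2, the R-spondin receptors Lgr4, Lgr5 and Lgr6, and the feedback genes Axin2, Rnf43 and Znrf3. They were taken by symbol from the 23420 named genes of the table that compares the mouse limbus and cornea, and all 10 were found with reads. The tissue came from wild type C57BL/6J mice, 8 weeks of age and untreated as far as the labels and methods state. Limbal rims, the ring between the cornea and the sclera, and corneal buttons, the cornea inside that ring, were dissected from 16 eyeballs and pooled by tissue, so 1 pool of several animals stands for each tissue. Total RNA of the pools was sequenced from stranded libraries. The labels number 4 samples per tissue, L001 to L004, but the table holds a single mean per gene built from 1 cornea library and 1 limbus library. There was therefore no spread between animals or replicates, and no test across samples was possible.

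In canonical Wnt signaling, a ligand bound to Frizzled and LRP receptors stops the destruction complex from degrading β-catenin, which then joins TCF/LEF factors on DNA and switches on target genes. Without β-catenin the same factors hold these genes down together with TLE corepressors. The ubiquitin ligases RNF43 and ZNRF3 remove Frizzled receptors from the cell surface, and R-spondins bound to LGR4, LGR5 or LGR6 clear these ligases and so raise the sensitivity of a cell to Wnt. Axin2, a scaffold of the destruction complex, is a widely used readout gene because Wnt signaling itself induces it, as it also induces Rnf43 and Znrf3. In epithelia, Lgr5 and Lgr6 are known as markers of stem or progenitor cells, whereas Lgr4 is broadly expressed.

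Reads of each library were worked back from the deposited mean, and a ratio is given as limbus over cornea after division by a size factor of 0.967 for the limbus and 1.03 for the cornea. Log2 ratios carry a 95% confidence interval (CI), obtained by the Clopper-Pearson method on the reads that fell to the limbus, and it covers counting error only. A gene was called when it differed by at least 2-fold with its interval past 0, and a library at or under 3 reads, which a count of 0 allows, was set to 3 reads for this rule. A gene at or under 3 corneal reads, such as Lgr5 and Lgr6, could therefore be called toward the limbus only. Of the 10 members, 4 were called higher in the limbus (Axin2, Tcf7, Lgr6 and Lgr5), against 19.1% of the 15572 genes tested, and 0 were called higher in the cornea, against 8.26%. Calls in either direction thus number 4 of 10, where 27.4% of all genes were called. By the interval alone, 6 members (Tcf7, Tcf7l1, Lgr5, Lgr6, Axin2 and Rnf43) lay toward the limbus, against 35.5% of all genes. Toward the cornea lay 1 member (Lgr4, at 0.03 after scaling to total reads), against 36.7% (72.2% in either direction). For 3 members (Lef1, Tcf7l2 and Znrf3) the interval included 0, though for Znrf3 not after scaling to total reads. The median log2 ratio was 0.41 over the members and 0.01 over all genes tested. With so few members, these counts describe the genes and are not a property of the pathway. Fewer cells of a type and less RNA per cell cannot be told apart in such pooled tissue.

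The deposited columns name no sample. The comparison was taken as cornea over limbus, and known genes were used to see whether this orientation holds. Krt12, the keratin of differentiated corneal epithelium, gave 1137735 corneal and 233324 limbal reads, and all 8 genes listed for limbal and conjunctival epithelium were called higher in the limbus. The limbus library also held far more reads of other tissues. Summed normalized reads of skeletal muscle genes were 86.1 in the cornea and 10391 in the limbus, those of blood vessel endothelium 235 and 2945, and those of melanocytes 334 and 1699. Of these, 6 of 6 muscle genes, 6 of 7 endothelial genes and 5 of 6 melanocyte genes were called higher in the limbus. Genes of macrophages and dendritic cells (4 of 5), of the ciliary body, retina and lens (5 of 6), of fibroblasts (5 of 7), of smooth muscle and pericytes (6 of 6), of Schwann cells (4 of 5) and of lymphatic endothelium (3 of 4) also stood higher there. Keratocyte genes had 1 call toward the limbus and 2 toward the cornea among 6, corneal endothelium 2 of 5 toward the limbus, goblet and secretory cells 1 of 2 with Muc5b and Tff1 at 0, and corneal epithelium 2 of 5 toward the cornea. The part of these cells in the results below was not tested, except where a value bears on it.

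The promoter windows of Axin2 and Lgr6 are shown because these members were called higher in the limbus and have 1 annotated start each in the reference. Tcf7 has 2 starts there, with windows of 76.3% and 64.3% G and C, and Lgr5 and Znrf3 have no entry. Each window runs from 250 bases before to 50 bases after the annotated start in RefSeq (GRCm38.p6), written 5′ to 3′ on the strand of the gene, and capitals mark the 50 bases from the start onward. The Axin2 window is chr11:108920099-108920398 on the plus strand and that of Lgr6 chr1:135105227-135105526 on the minus strand.
Axin2: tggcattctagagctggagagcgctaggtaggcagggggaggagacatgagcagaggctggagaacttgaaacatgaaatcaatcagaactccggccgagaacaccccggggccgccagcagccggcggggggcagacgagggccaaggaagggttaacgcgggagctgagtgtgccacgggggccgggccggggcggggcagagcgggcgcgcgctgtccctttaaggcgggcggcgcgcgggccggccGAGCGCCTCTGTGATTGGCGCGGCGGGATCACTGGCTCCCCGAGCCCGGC
Lgr6: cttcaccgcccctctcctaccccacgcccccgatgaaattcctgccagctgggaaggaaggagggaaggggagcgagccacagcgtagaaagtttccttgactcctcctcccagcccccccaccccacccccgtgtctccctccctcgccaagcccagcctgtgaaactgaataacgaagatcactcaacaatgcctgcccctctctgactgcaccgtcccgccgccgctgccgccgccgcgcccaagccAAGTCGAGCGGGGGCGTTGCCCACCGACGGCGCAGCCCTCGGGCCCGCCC
These windows are rich in G and C, with 70% for Axin2 and 67.7% for Lgr6, against a median of 52.7% over 32851 windows of all genes. They hold 31 and 24 CG dinucleotides, where the median window has 7. Of the core sequence bound by TCF/LEF factors, 2 forms, CTTTGAA and CTTTGAT, were searched on both strands, and other forms were not. At least 1 of these was in 0 of the 14 windows of the 8 members with an entry. Over all windows of this length the share was 8.65%. This says only that these letters are not in the member windows.

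**Figure D1:**
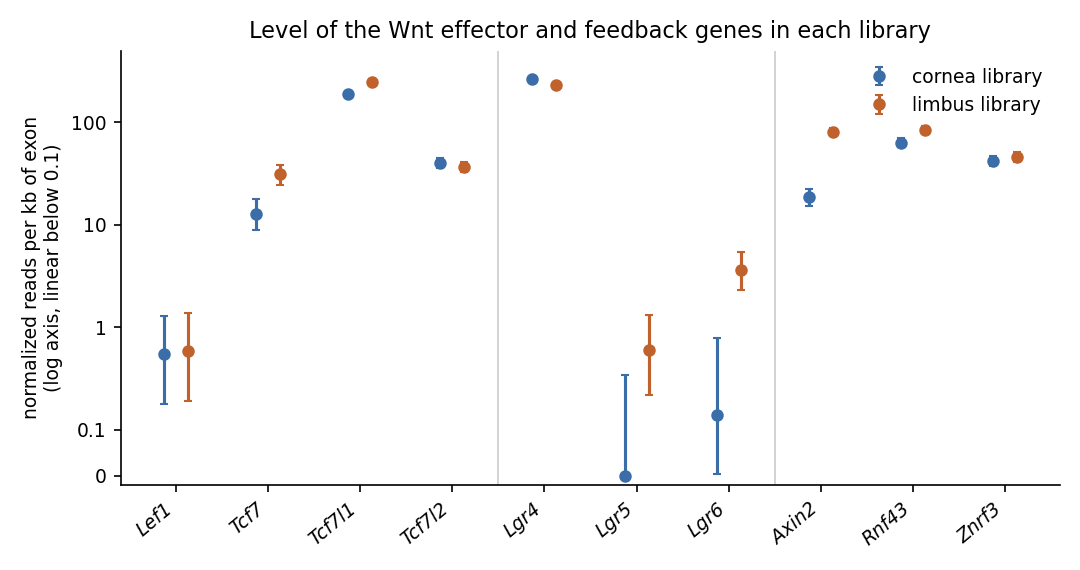
Level of each of the 10 genes in the cornea (blue) and limbus (orange) library, as normalized reads per kb of exon on a log axis that is linear below 0.1. Points are 1 library each, bars are exact 95% Poisson intervals for counting error, and vertical lines part the TCF/LEF factors, the R-spondin receptors and the feedback genes. Axin2 stands at 18.6 in the cornea and 81.1 in the limbus, whereas Lgr4 and Tcf7l1 lead in both.

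Axin2 showed the clearest difference of the feedback genes. It lies on chromosome 11 from 108920349 to 108950783 (GRCm38, plus strand). The cornea library had 106 reads and the limbus library 432, or 103 and 447 normalized reads. The level in the limbus was thus 4.36-fold higher (log2 ratio 2.12, 95% CI 1.81 to 2.44). The interval lies above the 2-fold limit, and the log2 ratio was between 2.11 and 2.33 after scaling to total reads or by a trimmed mean of M-values and with a pseudocount of 1. These values rest on the reads picked, since the next best pair with the same mean, which misses the deposited comparison, would give 0.71 and end the call. An antisense gene, Gm11670, overlaps exons of Axin2, and whether reads were counted by strand is not given in the sources used here.

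The ubiquitin ligase genes, which oppose Wnt at the receptor, differed less than Axin2. For Rnf43 (chromosome 11, 87662722 to 87735539, plus strand) the cornea library gave 430 reads and the limbus library 538. Its log2 ratio, 0.42 (95% CI 0.23 to 0.61), exceeds counting error but lies below the 2-fold limit. For its paralog Znrf3 (chromosome 11, 5276324 to 5444847, minus strand) the libraries gave 342 and 351 reads, with a log2 ratio of 0.13 (95% CI -0.09 to 0.35). With this scaling a difference in Znrf3 was thus not beyond counting error, and the interval reaches 1.28-fold in favor of the limbus. Scaling to total reads gave a log2 ratio of 0.34. That shift of 0.21 puts the whole interval above 0 and its upper end past 1.28-fold, so the result for Znrf3 depends on the scaling. All 3 feedback genes had more normalized reads in the limbus, but the interval of Axin2 lay apart from those of Rnf43 and Znrf3.

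Set against each other within a library, the feedback genes changed rank. Such a share does not depend on how the libraries are scaled. Axin2 made up 12.1% of the reads of the 3 genes in the cornea (95% CI 9.99 to 14.4) and 32.7% in the limbus (95% CI 30.2 to 35.3). The share of Rnf43 went from 49.0% to 40.7% and that of Znrf3 from 39.0% to 26.6%. Per kb of exon, Axin2 stood at 18.6 normalized reads in the cornea, below Rnf43 at 63.4 and Znrf3 at 41.9. In the limbus it stood at 81.1, and its interval overlapped that of Rnf43 at 84.8.

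**Figure D2:**
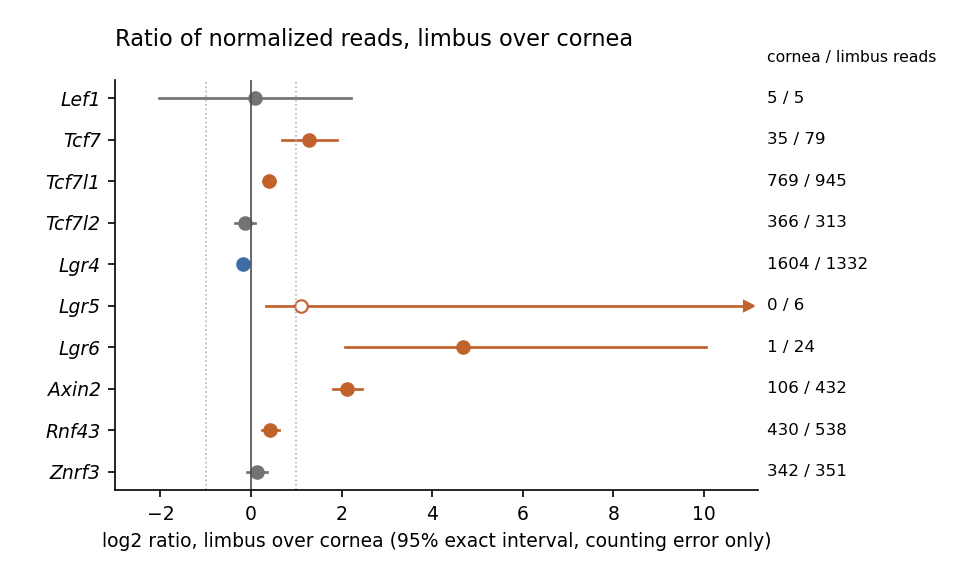
Log2 ratio of normalized reads, limbus over cornea, for each gene with its exact 95% interval, and the reads behind it at the right as cornea / limbus. Orange marks an interval above 0, blue an interval below 0 and gray an interval that includes 0; dotted lines mark 2-fold, and the open point of Lgr5 is its ratio against 3 corneal reads, with an interval that begins at 0.33. Axin2 at 2.12 has a narrow interval, whereas that of Lgr6 runs from 2.06 to 10.04.

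Among the R-spondin receptors, Lgr6 and Lgr5 were called higher in the limbus and Lgr4 was not called. Lgr4 (chromosome 2, 109917647 to 110014257, plus strand) carried nearly all receptor reads, 1604 from the cornea and 1332 from the limbus. Its log2 ratio of -0.17 (95% CI -0.28 to -0.07) put it slightly on the corneal side, the only member whose interval lay below 0. That direction depended on the scaling, since scaling to the total reads gave 0.03, where Lgr4 no longer lay on the corneal side. Under either scaling the difference was small beside the 2-fold limit.

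Lgr6 (chromosome 1, 134983301 to 135105276, minus strand) was read 1 time from the cornea and 24 times from the limbus. The log2 ratio was 4.68 with a wide interval from 2.06 to 10.04, because the cornea value rests on a single read. Against 3 reads in the cornea the limbus was still 8.55-fold higher. Lgr5 (chromosome 10, 115450311 to 115587780, minus strand) gave 0 corneal and 6 limbal reads. Against the 3 corneal reads that a count of 0 allows, the limbus was at least 2.14-fold higher. With the counting error of the limbal reads included, the exact interval began lower, at a log2 ratio of 0.33. It was no longer called with a pseudocount of 1 normalized read, and at 6 reads its level in the limbus is itself uncertain.

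Lgr4 made up 99.9% of the reads of the 3 receptor genes in the cornea and 97.8% in the limbus (95% CI 96.9 to 98.5). Lgr6 contributed 1.76% in the limbus (95% CI 1.13 to 2.61) and 0.0623% in the cornea (95% CI 0.00158 to 0.347), so these intervals do not overlap. Lgr5 contributed 0.441% in the limbus (95% CI 0.162 to 0.956). Lgr6 and Lgr5, the receptors called higher in the limbus, were the rare ones. At 1 and 0 corneal reads they could be called toward the limbus only, so no link between level and side can be drawn. Hair follicle and epidermis also use Lgr5 and Lgr6. Of their markers, Krt71 was listed at 0 in both libraries, Krt10 had 232 and 254 reads and Krt1 had 131 and 190. Of the 3 tested genes of the list 0 were called, but all 3 lay toward the limbus. Their log2 ratios ran from 0.23 to 1.10 with a median of 0.63, and 1 had its interval above 0. The part of such tissue in the reads of Lgr5 and Lgr6 was not tested. The summed level of that list was 355 corneal and 466 limbal normalized reads.

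Among the TCF/LEF factors, Tcf7 was higher in the limbus, Tcf7l1 slightly so, and Tcf7l2 and Lef1 did not differ beyond counting error. Tcf7, which encodes TCF1, lies on chromosome 11 from 52252371 to 52283014 on the minus strand. The cornea gave 35 reads and the limbus 79, so the limbal level was 2.41-fold higher (log2 ratio 1.27, 95% CI 0.68 to 1.89). The interval includes the 2-fold limit, so the size of the difference is less certain than its side. A lincRNA on the same strand, Gm26551, and the antisense gene A630014C17Rik both overlap exons of Tcf7, and their reads may not be told apart from those of Tcf7.

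Tcf7l1 encodes TCF3, a factor known mainly as a repressor. This gene (chromosome 6, 72626378 to 72789254, minus strand) gave 769 corneal and 945 limbal reads, 1.31-fold more in the limbus (log2 ratio 0.39, 95% CI 0.25 to 0.53). The antisense gene Gm15401 touches its exons. Tcf7l2, which encodes TCF4 (chromosome 19, 55741820 to 55933654, plus strand), gave 366 corneal and 313 limbal reads. Its log2 ratio was -0.13 (95% CI -0.35 to 0.09) and changed sign to 0.08 when scaled to total reads. The intervals of Tcf7l1 and Tcf7l2 do not overlap, so these factors differed from each other in their ratios by more than counting error.

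Lef1 (chromosome 3, 131110471 to 131224356, plus strand) was close to the limit of detection, with 5 reads in each library. Its log2 ratio was 0.10 (95% CI -2.02 to 2.22), so a difference within these bounds was not detectable at this depth. The antisense gene Gm43352 touches its exons. The table is counted by gene. Full-length forms of Lef1 and Tcf7 and the short forms that lack the β-catenin binding part were thus not told apart.

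Tcf7l1 led the family in both tissues, with 65.4% of the reads of the 4 factors in the cornea (95% CI 62.6 to 68.2) and 70.4% in the limbus (95% CI 67.9 to 72.8). Per kb of exon its share was 77.9% and 78.4%. Tcf7l2 took 31.1% of the corneal reads (95% CI 28.5 to 33.9) and 23.3% of the limbal reads (95% CI 21.1 to 25.7), and Tcf7 went from 2.98% (95% CI 2.08 to 4.12) to 5.89% (95% CI 4.69 to 7.28). Lef1 stayed under 1%, at 0.426% in the cornea and 0.373% in the limbus. The intervals of Tcf7 and of Tcf7l2 do not overlap between the libraries, and those of Tcf7l1 and Lef1 do.

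**Figure D3:**
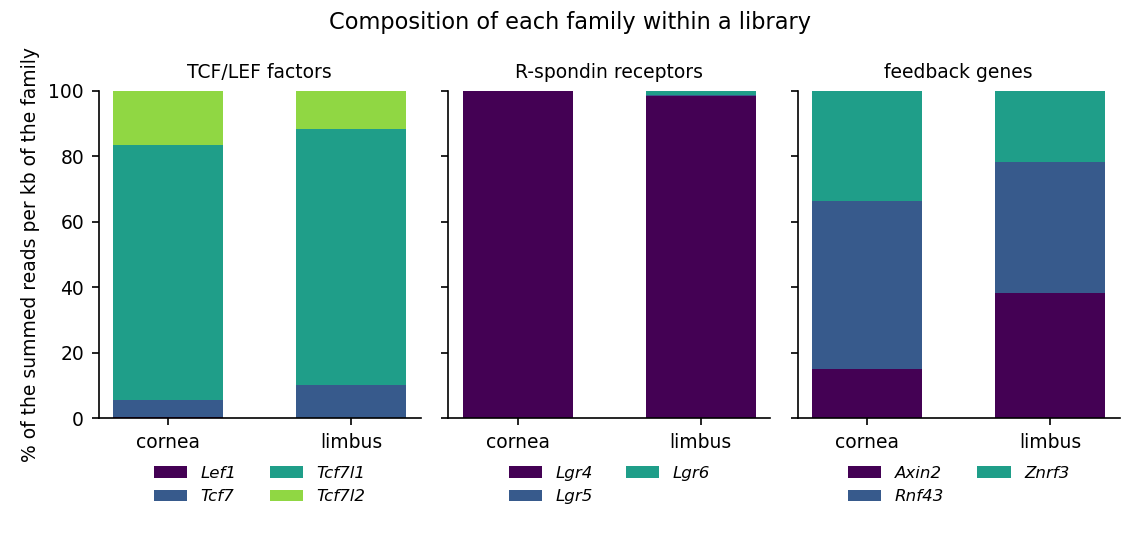
Share of each gene in the summed normalized reads per kb of exon of its family, in percent, for the cornea and limbus library. Tcf7l1 holds 77.9% and 78.4% of the TCF/LEF factors, Lgr4 99.9% and 98.2% of the receptors, and Axin2 15.0% and 38.3% of the feedback genes.

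Tcf7 and Lef1 are also genes of T lymphocytes, so T cell genes were read beside them. The 7 genes found in the table summed to 52.2 corneal and 76.5 limbal normalized reads. For Cd5, with 49 and 36 reads, the log2 ratio was -0.35 (95% CI -1.01 to 0.30), not beyond counting error. The CD3 genes Cd3e, Cd3d and Cd3g had between 0 and 4 reads in either library and Cd8a had 0 and 1. Cd4 had 1 and 18 reads and Il7r 2 and 12, and these 2 of the 4 tested genes were called higher in the limbus. Over all genes tested the share was 19.1%. Both were at or under 3 corneal reads, so only a call toward the limbus was possible and its direction carries no weight. The part of T cells in the level of Tcf7 was not tested.

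Ordered by level per kb of exon, the members ran in the cornea from Lgr4 (264 normalized reads per kb) and Tcf7l1 (190) through Rnf43, Znrf3, Tcf7l2, Axin2 and Tcf7 (12.9) to Lef1 (0.550), Lgr6 and Lgr5. Neighbors with overlapping intervals were Znrf3 and Tcf7l2, Axin2 and Tcf7, and the last 3 genes. In the limbus Tcf7l1 (249) and Lgr4 (234) led and their intervals overlapped. Rnf43 and Axin2, which also overlapped, came next, then Znrf3, then Tcf7l2 and Tcf7 (31.1), which overlapped, then Lgr6 (3.62), and at the end Lgr5 and Lef1 (0.588), which overlapped. The move of Axin2 from rank 6 to rank 4 was the largest change of rank among the genes above 10 normalized reads per kb. The lengths are unions of all annotated exons. By the mean length of coding transcripts instead, Tcf7l1 (414) stood above Lgr4 (309) in the cornea and Axin2 (254) was the third in the limbus.

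R-spondins are the ligands of the LGR receptors. Of the 3 genes of their list that could be tested, 2 were called higher in the limbus, against 19.1% of all genes tested. All 3 passed the floor only through their limbal reads, so a call toward the cornea was not possible and the direction carries no weight. Rspo1 gave 0 corneal and 37 limbal reads, at least 13.2-fold higher in the limbus against 3 corneal reads, and Rspo3 gave 0 and 8, at least 2.85-fold higher on that basis. Their exact intervals, which include the counting error of the limbal reads, began at log2 ratios of 3.35 and 0.87. Rspo2 had 1 and 4 reads with a log2 ratio of 2.10 (95% CI -1.24 to 7.72), and Rspo4 had 0 and 1. Summed with the Frizzled ligand gene Ndp, which had 0 and 2 reads, the list came to 0.967 corneal and 53.8 limbal normalized reads. These are few reads beside the 1332 of Lgr4 in the limbus.

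The rest of the pathway was read from 8 lists of 114 genes, of which 100 were tested, 31 were called toward the limbus and 10 toward the cornea. Over all genes these shares were 19.1% and 8.26%, so the corneal count lay near the background. It was 7 after scaling to total reads, whereas the shares over all genes are those before that scaling. Their median log2 ratio was 0.26, beside 0.41 for the 10 members and 0.01 for all genes tested. Among pathway genes with a mean of at least 50 normalized reads, 19 were called toward the limbus and the median was 0.075. No share or median over all genes at that mean is given here. Among 19 other target genes tested, 9 were called toward the limbus and 3 toward the cornea. Nkd2 and Nkd1, feedback inhibitors that bind Dishevelled, lay on the same side as Axin2. Nkd2 gave 9 corneal and 423 limbal reads (log2 ratio 5.65, 95% CI 4.71 to 6.79), and Nkd1 gave 69 and 310 (log2 ratio 2.26, 95% CI 1.88 to 2.66).

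Other feedback genes, named after their values were seen, also lay on the limbal side. Notum, whose product removes the lipid from Wnt proteins, had 22 and 54 reads, and Apcdd1, a membrane inhibitor of Wnt, had 194 and 387, with log2 ratios of 1.39 and 1.09. Some target genes lay on the other side. Cd44, a hyaluronan receptor gene, was higher in the cornea, with 13065 corneal and 2934 limbal reads and a log2 ratio of -2.06. The other target genes called there, Id2 with 7046 and 2454 reads and Gja1 with 10631 and 3804, were named after their values were seen. Ccnd1, the cyclin D1 gene, with 11165 and 5338 reads (log2 ratio -0.97), and Myc, with 549 and 763 (log2 ratio 0.57), did not reach 2-fold and were also named after their values were seen. The 6 cycling-cell markers gave 0 calls and summed to 9398 corneal and 7891 limbal normalized reads. By the interval alone, 3 lay toward the cornea and 0 toward the limbus, against 36.7% and 35.5% of all genes tested. Their median log2 ratio was -0.18, before scaling to total reads, which raises every ratio by 0.21.

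Of the partners of TCF/LEF factors in the nucleus, 3 of 17 were called toward the limbus, close to the share over all genes, and 0 toward the cornea. The corepressor gene Tle1 gave 37 corneal and 280 limbal reads (log2 ratio 3.02, 95% CI 2.52 to 3.55), and Tle2 had 42 and 201 (log2 ratio 2.35, 95% CI 1.87 to 2.87). Pygo1, a coactivator gene, had 3 and 21 reads (log2 ratio 2.90, 95% CI 1.16 to 5.29). In the list of the destruction complex and Dishevelled, 1 of 18 genes was called toward the limbus and 2 toward the cornea, with a median of -0.18, but after scaling to total reads 0 were called toward the cornea and the median was 0.025. Its members past the rule were Apc2 with 6 and 20 reads, Csnk1a1, the casein kinase that primes β-catenin, with 7250 and 3198 reads, and Usp34, a deubiquitinase of Axin, with 3515 and 1605. Ctnnb1, which encodes β-catenin, gave 19010 corneal and 13895 limbal reads (log2 ratio -0.36, 95% CI -0.39 to -0.32).

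Upstream of the members, 4 of 12 Wnt ligands tested were called toward the limbus and 2 toward the cornea. Over all genes tested these shares were 19.1% and 8.26%, and they stand beside the receptor and antagonist counts below as well. Wnt2b had 0 and 30 reads, at least 10.7-fold higher in the limbus against 3 corneal reads, with an interval that begins at a log2 ratio of 3.03. Wnt5b had 46 and 445, and Wnt6 had 195 and 557. Named after their values were seen, the fourth ligand on this side was Wnt10a, with 693 and 1350 reads, and those on the corneal side were Wnt2 with 558 and 243 and Wnt9a with 1178 and 410. Of 16 receptor genes, 5 were called toward the limbus and 2 toward the cornea. Fzd3 with 49 and 179 reads, Ror2 with 40 and 138 and Fzd9 with 0 and 9 led toward the limbus. The rest, named after their values were seen, were Fzd1 (574 and 1385) and Fzd2 (217 and 410) on the limbal side, and Fzd4 (413 and 122) and Fzd6 (4586 and 1844) on the corneal side. The co-receptor genes Lrp5, with 1156 and 1400 reads, and Lrp6, with 1660 and 1204, lay on opposite sides with log2 ratios of 0.37 and -0.37. For the antagonists, 7 of 13 genes were called toward the limbus and 1 toward the cornea, led by Sfrp2 with 28 and 681 reads, and by Sfrp4 and Sfrp5 with 0 and 24 reads each. In these 3 lists, genes at or under 3 corneal reads, such as Wnt2b, Fzd9, Sfrp4 and Sfrp5, could be called toward the limbus only. Their direction carries no weight. Summed over the antagonist list, normalized reads were 17932 in the cornea and 13945 in the limbus. Among antagonists with a mean of at least 50 normalized reads, 3 were called toward the limbus and the median was 0.26, beside 1.09 for all those tested. The call toward the cornea was Dkk3, with 8883 and 3503 reads, named after its values were seen. Neither Porcn (435 and 475) nor Wls (3896 and 2994), which serve Wnt secretion, was called.

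**Figure D4:**
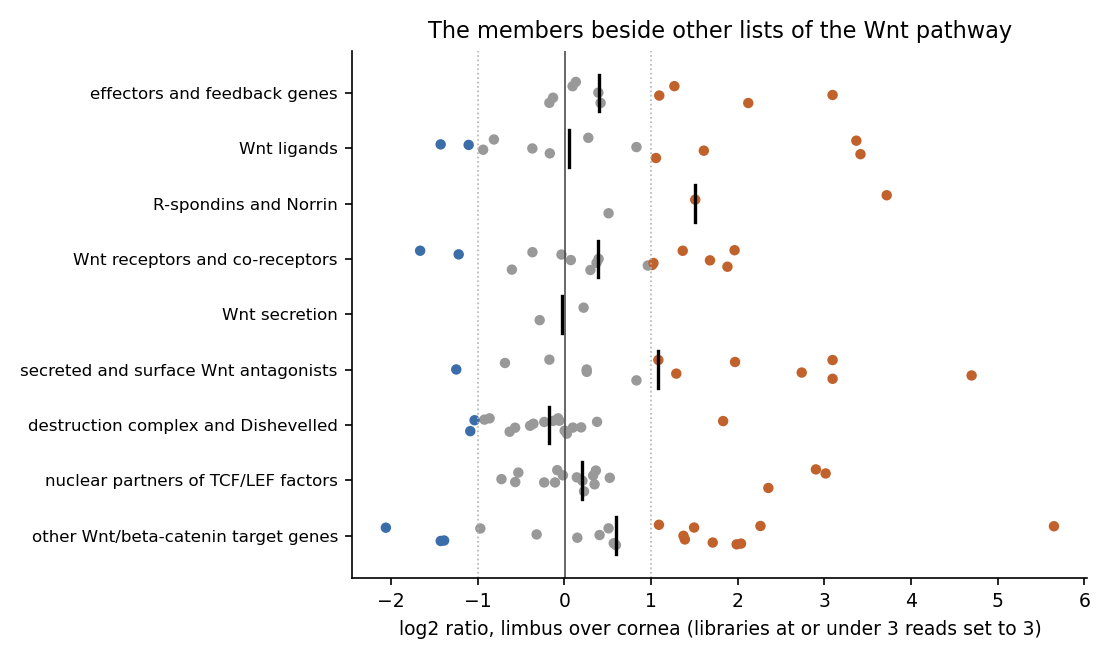
Log2 ratio, limbus over cornea, of every tested gene in 9 groups: the 10 effectors and feedback genes and 8 other lists of the pathway, with libraries at or under 3 reads set to 3. Each point is a gene, orange at 2-fold or more toward the limbus and blue toward the cornea, black bars are medians, and the vertical line is the median of all genes at 0.01. The members have a median of 0.41, the antagonists 1.09 and the destruction complex -0.18, which becomes 0.025 after scaling to total reads.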

How the data were processed

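Limbal rims and corneal buttons were pooled by tissue before stranded total RNA libraries were made. Adaptor trimming, mapping to GRCm38 (mm10) and TMM normalization were done in CLC Genomics Workbench 20. The authors deposited 1 table of 40904 rows, of which 17484 name no gene and were left out, with a mean normalized signal per gene over the libraries. The authors also deposited their own comparison, a shrunken fold change on the log2 scale and its error, and the p-value columns the authors deposited were not used. Accessions match the symbols beside them for 2 of 18556 genes and 0 of the 10 members, so genes were taken by symbol.

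Each of the 17442 means above 0 is a sum of whole reads of a cornea and a limbus library, where 109 of the former equal 102 of the latter. For 4 members the mean fits 1 pair of read numbers, and for the other 6 between 5 and 28 pairs. The deposited log2 fold change and error then served, through the equations of a negative binomial fit with a normal prior, only to pick the pair, and their values are not printed. Picked pairs lay within 0.5 reads of that solution for 17429 genes and within 0.00106 reads for the members. On data simulated for cornea against limbus from these same equations, all 17068 pairs were found. This checks the solving step only and cannot show that the deposited values followed the model. Reads are thus derived values, and intervals ignore PCR duplication, which no molecular identifiers tracked. Reads on named genes numbered 26104317 (cornea) and 21182025 (limbus).

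The design allowed for counts per sample, which the table lacks. The members and lists were chosen with earlier results of these data known. Named genes are the members, up to 3 called genes with the largest ratio in each pathway list, Ctnnb1, R-spondins, Lrp5 and Lrp6, and marker genes at 0 or with the most reads. Any further gene, such as the other T cell and skin genes, was chosen for naming with its values known. Positions and lengths are from GENCODE vM21 and promoters from RefSeq (GRCm38.p6). Alternatives were total reads or TMM (30% and 5% trimmed) as scaling, a pseudocount of 1, a floor of 10 reads, folds of 1.5 and 4, the interval alone, means of at least 10 and 50, the next best pair, and other gene lengths. Python 3.11.15, numpy 2.4.6, scipy 1.17.1, pandas 2.3.3 and matplotlib 3.10.9 were used.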

Additional observations from a re-analysis of the deposited data

How the results depend on the processing

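No paired analysis was possible because the table gives no value for a numbered sample, and for the same reason no sample could be left out in turn. Scaling to total reads raised every log2 ratio by 0.21, which moved Tcf7l1 to 0.60, Rnf43 to 0.62 and Lgr4 to 0.033 and the pathway median to 0.46. A trimmed mean of M-values raised every ratio by 0.02. Under these scalings the members called stayed at 4 and 0. With a pseudocount, or a floor of 10 reads, 3 members were called higher in the limbus. A 4-fold rule left 2 members in the limbus, and the interval alone gave 1 in the cornea. In the pathway lists, the 4-fold rule gave 13 limbus and 1 cornea calls, a 1.5-fold rule 19 in the cornea, and the interval alone 50 and 32. A mean of at least 50 left 19 limbus calls and a median of 0.075. The next best pair of reads with the same mean, which misses the deposited comparison, would give log2 ratios of 0.71 for Axin2, 0.037 for Tcf7l1, -1.07 for Tcf7l2, -0.38 for Lgr4, -0.21 for Rnf43 and -0.76 for Znrf3. The longest transcript as gene length moved 6 of 20 ranks and the mean coding transcript 9 of 20. Lef1, Lgr5 and Lgr6 are limited by depth, with 10, 6 and 25 reads over both libraries.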
